A study of Mus musculus with 15 samples.

Results

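The genes described here are the receptor Csf1r, its ligands Csf1 and Il34, and the macrophage markers Adgre1 and Cd68. They were chosen by symbol, because the study depletes macrophages through this receptor, and all 5 were found among the 17271 genes of the deposited table. RNA had been sequenced from 15 mammary tumours grown in vivo in BALB/c mice, all of them p53 null. They belonged to 4 models: 2208L (8 samples), 2151R (4 samples), 2225L (2 samples) and T11 (1 sample). Among the 2208L tumours, 4 were titled PBS (replicates 2 to 5), 3 were titled 3day nt (replicates 6 to 8) and 1 carried only the library name ROSEN (replicate 1). The titles of 2151R carry a code of digits, 53ca, NT2 and NT (replicates 1 to 4 in that order). Of the 2225L tumours, replicate 1 carries T-Vivo and replicate 2 only the library name ROSEN. The meaning of nt, NT, 53ca, the code of digits, ROSEN and T-Vivo, the age of the mice, and whether samples of a model came from separate mice are not given in the sources used here. P-values therefore measure the spread between these samples.

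Csf1r encodes the receptor tyrosine kinase on which most tissue macrophages and monocytes depend for survival, proliferation and differentiation. Its ligands colony stimulating factor 1 (Csf1) and interleukin 34 (Il34) are made mainly by stromal, epithelial and tumour cells, so ligand and receptor RNA in a tumour usually come from different cells. Adgre1 encodes the surface protein F4/80, the usual marker of mouse macrophages, and Cd68 encodes a lysosomal glycoprotein that is abundant in macrophages and osteoclasts. In mammary tumours, Csf1 draws in macrophages, and antibodies or kinase inhibitors against the receptor are used to deplete them.

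Each value is the log2 of a gene's level relative to a reference for that gene that the sources do not name, so samples can be compared for a gene but levels cannot be ranked between genes. A sample at 0 lies at that reference. The depth of the libraries is unknown. The library numbers of the 2151R tumours fall in a range of their own, as do those of the PBS and of the 3day nt tumours, so library series and group cannot be told apart in those comparisons. The first 2225L tumour has a library name beginning with CP and the second one beginning with ROSEN. The summed skeletal muscle markers were far higher in 3 tumours than in the other 12, which lay between -4.15 and 3.13 as a mean log2 value of 7 genes. The 3 were the 2151R tumour titled NT2 (7.54) and the first (10.6) and last (10.1) of the 3day nt tumours. Tumours are mixtures of cells, and fewer cells of a type and less RNA per cell cannot be told apart in any value below. A gene was called where limma's moderated test over all genes gave a Benjamini-Hochberg adjusted p under 0.05.

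The region just upstream of the transcription start was available for Csf1 and Cd68, which encode a ligand and the lysosomal marker. The sequences are those of RefSeq (GRCm38.p6), cover the 250 bases before the start, and are written 5′ to 3′ on the minus strand, from which both genes are read. The Csf1 window lies at chr3:107760470-107760719 and the Cd68 window at chr11:69666171-69666420. Capitals mark a match to an NF-kappaB motif, searched on either strand.
Csf1: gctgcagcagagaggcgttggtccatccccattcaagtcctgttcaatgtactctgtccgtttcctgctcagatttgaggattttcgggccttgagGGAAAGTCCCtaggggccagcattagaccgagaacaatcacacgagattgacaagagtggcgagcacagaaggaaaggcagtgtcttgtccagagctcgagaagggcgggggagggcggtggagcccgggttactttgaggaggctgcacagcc
Cd68: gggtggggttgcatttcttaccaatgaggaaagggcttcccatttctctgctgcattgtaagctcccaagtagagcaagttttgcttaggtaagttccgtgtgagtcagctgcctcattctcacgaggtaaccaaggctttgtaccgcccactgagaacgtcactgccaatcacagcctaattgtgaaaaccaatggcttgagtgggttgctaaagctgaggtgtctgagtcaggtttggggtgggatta
The single match in Csf1 lies on the opposite strand and begins 154 bases before the start. The NF-kappaB motif occurred in 1.41% of the 32851 promoter windows of this length. The Cd68 window held no match, and neither window held the PU.1 motif GAGGAAGT, found in 2.44% of windows on either strand, or TATAAA, found in 12.4%. A match describes letters in a window and is not a binding site.

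The ligand Csf1 was highest in T11 and 2151R. It was 2.15 in the T11 tumour and 1.41, 1.05, 1.27 and 1.40 in the 2151R tumours. In 2208L it ran from -0.94 to 0.04 with a median of -0.27, and the 2225L tumours lay at -1.36 and -0.63. All 5 tumours of T11 and 2151R therefore lay above all 10 of the other models, and of the 2225L tumours the first lay below the 2208L range and the second within it. Csf1 was 1.64 higher on the log2 scale in 2151R (1.28 ± 0.17, SD, n = 4) than in 2208L (-0.35 ± 0.36, SD, n = 8), a 3.11-fold difference (SE 0.21, limma adjusted p = 2.65e-05).

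Il34, the second ligand of the receptor, had the largest difference of the 5 genes between 2151R and 2208L and between 2151R and 2225L. It was 2.25 in T11 and 1.85, 1.57, 1.62 and 1.66 in 2151R, against a range of -0.80 to 0.00 with a median of -0.37 in 2208L. The 2225L tumours differed from each other, at -2.09 and -0.66. The high and low models were again fully separated. The 2151R mean of 1.68 ± 0.12 (SD, n = 4) exceeded the 2208L mean of -0.38 ± 0.25 (SD, n = 8) by 2.06, or 4.16-fold (SE 0.226, limma adjusted p = 6.54e-06).

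The receptor Csf1r followed the same order of models. Its value was 1.83 in T11 and 1.18, 0.91, 0.82 and 0.87 in 2151R. The 2208L tumours ran from -0.89 to 0.12 with a median of -0.41, and the 2225L tumours stood at -1.92 and -0.67. No tumour of 2208L or 2225L reached the lowest of 2151R. The difference between 2151R (0.94 ± 0.16, SD, n = 4) and 2208L (-0.32 ± 0.33, SD, n = 8) was 1.26, or 2.40-fold (SE 0.234, limma adjusted p = 0.00059).

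Adgre1, the F4/80 gene, had the smallest difference of the 5 genes between 2151R and 2208L, and the largest between 2225L and 2208L. It was 1.28 in T11, 0.86, 0.88, 0.39 and 0.46 in 2151R, and between -1.15 and 0.17 with a median of -0.22 in 2208L. The 2225L tumours lay at -2.79 and -0.75, so the first of them was the lowest of the 15 tumours for this gene. All 4 of the 2151R tumours lay above all 8 of 2208L. The difference of 0.92 (1.89-fold, SE 0.321, limma adjusted p = 0.0299) was called, but not without replicate 1 (0.85, adjusted p = 0.0843) or replicate 2 (0.84, adjusted p = 0.0811) of 2151R, nor without the 3 tumours rich in muscle markers (1.02, adjusted p = 0.0689).

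Cd68 was the only member for which T11 did not lead. The 2151R tumours stood at 1.32, 1.60, 1.39 and 1.61 and T11 at 1.21. In 2208L the values ran from -0.76 to 0.20 with a median of -0.41, and both 2225L tumours were close together at -0.89 and -0.93. The 2151R tumours were thus the highest and the 2225L tumours the lowest, with no overlap between any pair of models. Cd68 was 1.83 higher in 2151R (1.48 ± 0.15, SD, n = 4) than in 2208L (-0.35 ± 0.37, SD, n = 8), a 3.55-fold difference (SE 0.191, limma adjusted p = 3.92e-06).

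**Figure D1:**
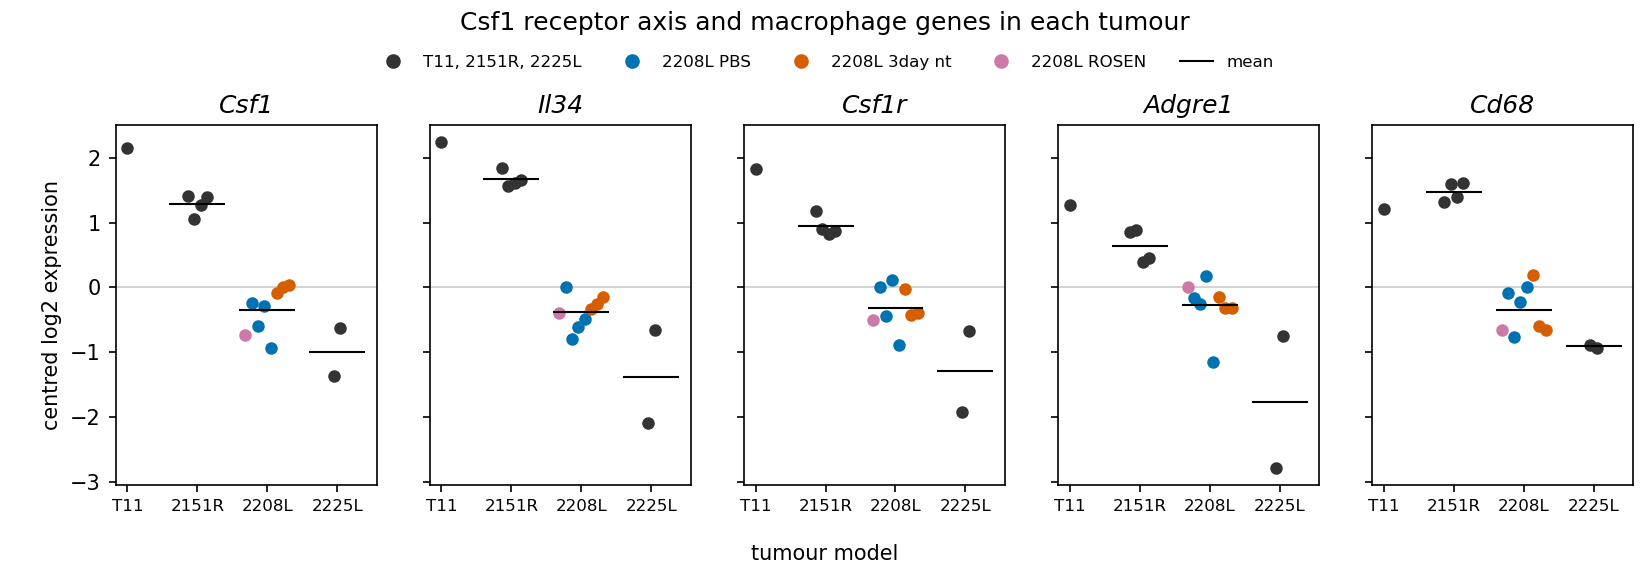
Centred log2 value of each of the 5 genes (one panel a gene) in each of the 15 tumours, by model, with a bar at the mean of each model. The T11 and 2151R tumours lie above all tumours of 2208L and 2225L for every gene, and 1 of the 2225L tumours lies far below the other for Il34, Csf1r and Adgre1.

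Between 2151R and 2208L, all 5 genes were called higher, where 26.1% of all genes tested were called higher, 22.7% lower and 48.8% in either direction. All 5 were also higher without any overlap between the models, as were 20.6% of all genes. An exact permutation test gave 0.00202 for each of the 5 (two-sided, unadjusted), the smallest p that 4 tumours against 8 can give. The differences were ordinary in size for this comparison: 13.6% of all genes differed more than Il34, 16.3% more than Cd68, 19.1% more than Csf1, 26.9% more than Csf1r and 38.2% more than Adgre1. The share of the variance over the 15 tumours that lay between models was 93.1% for Il34, 92.6% for Cd68, 91.6% for Csf1, 87.1% for Csf1r and 74.9% for Adgre1, beside a median of 64.2% over all genes.

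Between 2225L and 2208L, 3 of the 5 genes were called lower, where 17.3% of all genes were called lower, 15.6% higher and 32.9% in either direction. Adgre1 differed by -1.50 on the log2 scale (SE 0.415, limma adjusted p = 0.0142), Il34 by -0.99 (SE 0.292, adjusted p = 0.0191) and Csf1r by -0.98 (SE 0.302, adjusted p = 0.0243). In each of these genes the second 2225L tumour lay inside the 2208L range, and only the first lay below it. These 2225L tumours also differ in library name, so tumour and library series cannot be told apart here. Csf1 (-0.64, SE 0.271, limma adjusted p = 0.0859) and Cd68 (-0.56, SE 0.246, adjusted p = 0.0974) did not pass the test, although both 2225L values of Cd68 lay below all 8 of 2208L, as 16.0% of all genes did. Without the first 2225L tumour no member was called, and the limma differences shrank to -0.48 for Adgre1, -0.35 for Csf1r and -0.28 for Il34. That tumour also had the lowest summed level of the 6 pan-leukocyte genes in the study, at -2.56, against -1.14 in the second 2225L tumour and -0.59 to 0.47 in 2208L.

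Between 2225L and 2151R, all 5 genes were called lower, where 25.8% of all genes were called lower, 22.8% higher and 48.6% in either direction, and 33.4% of all genes were lower without overlap. The differences were -3.05 for Il34 (SE 0.32, limma adjusted p = 5.48e-06), -2.42 for Adgre1 (SE 0.455, adjusted p = 0.000747) and -2.39 for Cd68 (SE 0.27, adjusted p = 1.04e-05). Csf1 differed by -2.28 (SE 0.297, limma adjusted p = 3.7e-05) and Csf1r by -2.24 (SE 0.331, adjusted p = 0.000109). Both 2225L tumours lay below every 2151R tumour for all 5 genes. An exact permutation test of 2 tumours against 4 cannot give less than 0.0667, which was the value for each of them. These comparisons share samples, so the direction of one is not independent of the others.

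**Figure D2:**
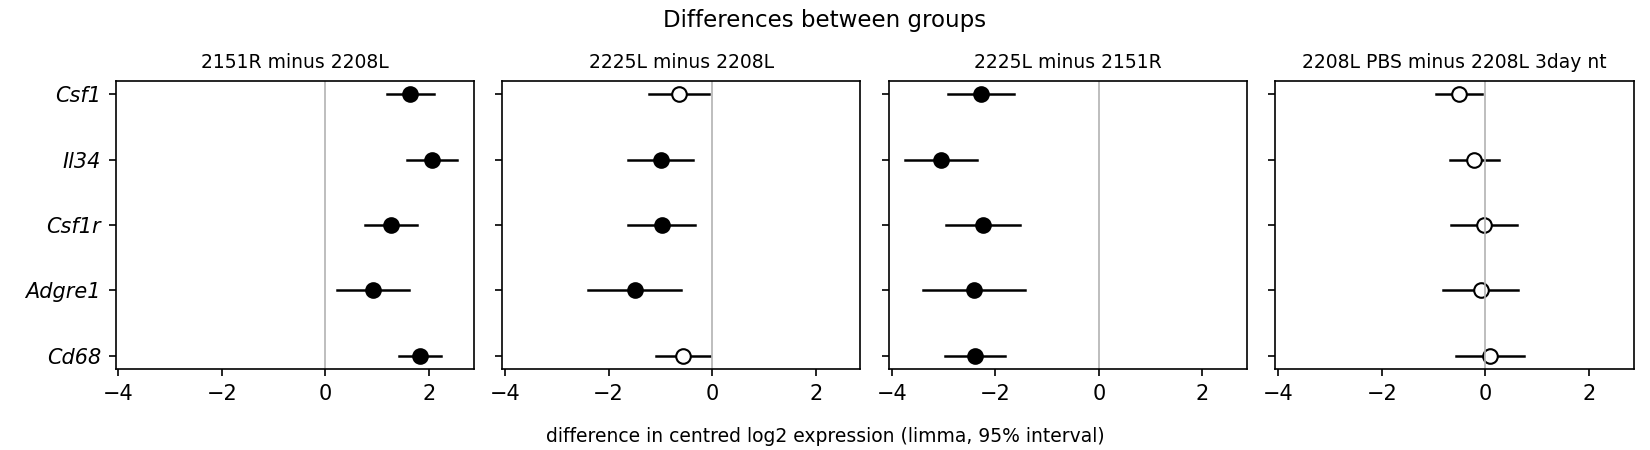
Difference in log2 expression with its 95% interval for the 5 genes in the 4 comparisons, as fitted by limma, with filled points for genes that were called and intervals not adjusted for multiple tests. The intervals of 2151R minus 2208L all lie above 0, those of 2225L minus 2151R all below 0, and in PBS minus 3day nt only that of Csf1 leaves out 0.

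T11, with a single tumour, allows no test. It stood above the highest 2151R tumour by 0.74 for Csf1, 0.65 for Csf1r, 0.39 for Il34 and 0.39 for Adgre1, and below all 4 for Cd68. It exceeded the 2208L mean by 2.63 for Il34, 2.50 for Csf1, 2.15 for Csf1r, 1.56 for Cd68 and 1.55 for Adgre1. All 5 genes were above the whole 2208L range, as were 35.8% of all genes. In the order T11, 2151R, 2208L, 2225L, the neighbours T11 and 2151R cannot be separated by a test, and the neighbours 2208L and 2225L overlapped for 4 of the 5 genes.

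Within 2208L, tumours titled PBS and 3day nt were compared because the titles give them different names. Csf1 was -0.24, -0.59, -0.29 and -0.94 in the PBS tumours and -0.08, 0.00 and 0.04 in the 3day nt tumours. Every PBS tumour was below every 3day nt tumour, an arrangement that 23.8% of all genes also showed in that direction. The difference was -0.50 (95% interval -0.95 to -0.06, SE 0.187), and limma's adjusted p of 0.0771 did not pass. The exact permutation p was 0.0857 (two-sided, unadjusted), where 0.0286 is the smallest that 4 against 3 can give. Csf1 did pass when each tumour was centred on its median (-0.44, limma adjusted p = 0.0253), after quantile normalization (-0.57, adjusted p = 0.0139) and with sample weights (-0.46, adjusted p = 0.00457). It was not called in the other 5 of 8 alternative settings. Among those was a fit with the skeletal muscle markers as a covariate, which called 0.706% of all genes. Over the 8 settings the difference ran from -0.57 to -0.42.

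The other members overlapped between the PBS and 3day nt tumours. The ligand Il34 lay between -0.80 and 0.00 in PBS and between -0.34 and -0.15 in 3day nt, with a difference of -0.22 (95% interval -0.69 to 0.25, limma adjusted p = 0.413). Csf1r lay between -0.89 and 0.12 in PBS and between -0.42 and -0.02 in 3day nt, and differed by -0.02 (interval -0.66 to 0.61, adjusted p = 0.953). Adgre1 differed by -0.10 (interval -0.81 to 0.62, limma adjusted p = 0.824) and Cd68 by 0.09 (interval -0.57 to 0.75, adjusted p = 0.826). The 3day nt tumours were the more alike for Csf1, with an SD of 0.062 against 0.32 in PBS. Of the 5 genes, 0 were called by limma and 1 (Csf1) had an unadjusted p under 0.05, where 34.0% of all genes were called in either direction, 17.4% higher and 16.5% lower. The intervals leave room for differences of about 0.6 on the log2 scale either way in Csf1r, Adgre1 and Cd68.

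Ligand and receptor were also set against each other within each tumour, as a difference of their log2 values. Il34 minus Csf1r was 0.67 to 0.80 in 2151R, 0.42 in T11, -0.17 and 0.01 in 2225L, and -0.73 to 0.41 in 2208L. All 2151R tumours therefore had a higher Il34 relative to Csf1r than any other tumour. Csf1 minus Csf1r overlapped between 2151R (0.14 to 0.53) and 2208L (-0.42 to 0.43). These differences are relative to each gene's own reference and do not say which RNA was more abundant.

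The members were set against the mean of 6 genes expressed by leukocytes at large (Ptprc, Cd53, Coro1a, Laptm5, Lcp1 and Cd52). Csf1r minus this mean was 0.68 to 1.05 in 2151R, 1.37 in T11, 0.47 and 0.64 in 2225L, and -0.56 to 0.08 in 2208L. On that scale the 2225L tumours lay above all of 2208L, the reverse of their order in the deposited values, and the same held for Csf1 (0.51 and 1.19 in 2225L, -0.66 to -0.09 in 2208L) and Il34 (0.47 and 0.48 in 2225L, -0.82 to 0.10 in 2208L). These ratios were not tested. Adgre1 minus the leukocyte mean overlapped between 2225L (-0.23 and 0.39) and 2208L (-0.61 to 0.08), as did Cd68 (0.21 and 1.66 in 2225L, -0.79 to 0.59 in 2208L). The leukocyte mean was -2.56 and -1.14 in the 2225L tumours, below all of 2208L. In 2151R and T11 the difference from the leukocyte mean was 0.43 or more for all 5 members in each tumour. Such differences are again relative to each gene's own reference and do not say which RNA was more abundant. The leukocyte mean itself was similar in 2151R (-0.04 to 0.23) and 2208L (-0.59 to 0.47), and 1 of its 6 genes, Ptprc (CD45), was called higher in 2151R (0.77, SE 0.24, limma adjusted p = 0.0167). That count of 1 became 5 with sample weights, 2 with either rescaling, and 0 without replicate 1 of 2151R or with tumours titled NT, nt or PBS alone. The shares of all genes called in those alternatives are not given here.

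Over the 15 tumours the 5 genes ran closely together, with Pearson r from 0.71 (Adgre1 with Cd68) to 0.97 (Csf1 with Il34). These points share model and library series, so the values are a description. After the mean of each model was taken away, Csf1r and Adgre1 still ran together (r = 0.89, and 0.79 within the 8 tumours of 2208L, Spearman 0.55), as did Csf1 and Csf1r (0.70, and 0.61 within 2208L) and Csf1 and Il34 (0.65, and 0.53 within 2208L). Il34 also ran with Csf1r (0.68) and with Adgre1 (0.66) after removal, but within 2208L these values were 0.19 and 0.01. Cd68 did not follow the others once models were removed, with r of 0.15 with Csf1r, 0.05 with Il34, -0.05 with Csf1 and -0.14 with Adgre1. The 2225L tumours, which differ in library name, enter all values after removal. They lay far apart for Adgre1 (-2.79 and -0.75) but not for Cd68 (-0.89 and -0.93). Within 2208L, Cd68 had r of 0.30 with Csf1r, 0.20 with Il34 and -0.01 with Csf1. Cd68 and Adgre1 also parted within 2208L (r = -0.21, Spearman -0.05). Replicate 5, which had the lowest Adgre1 of that model at -1.15, had a Cd68 of 0.00, the second highest.

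Among 14176 other genes, those most like each member over the 15 tumours were named by Pearson r. For Csf1r they were Hpgds (0.98), P2ry12 (0.98), Dram2 (0.98), Dse (0.97) and Hacd4 (0.97), and with model means removed r remained between 0.80 and 0.91. For Adgre1 they included Ms4a7, Myo1f, Pld4 and Adam15 (0.97 to 0.98), with 0.88 to 0.97 after removal. For Cd68 they were Gpr137b-ps, Mmp9, Rgl1, Rnf165 and Gpr137b (0.97 to 0.98), with 0.70 to 0.83 after removal. Reads of Gpr137b and Gpr137b-ps may have been divided between near-identical copies, so these values are uncertain. Csf1 was most like Wbp4, Glis2, Aoah, Podnl1 and Evi2a (0.97 to 0.98, and 0.72 to 0.85 after removal), and Il34 most like Glis2, Ly75, Lmna, Rab31 and Slc39a1 (0.97 to 0.98, and 0.58 to 0.81 after removal). Within 2208L alone, r of Il34 with its 5 genes ran from -0.01 (Ly75) to 0.79 (Lmna). Glis2 was the only gene on more than 1 of these 5 lists, those of both ligands.

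Other macrophage genes were read from a list of 23. In 2151R against 2208L, 13 rose (56.5%, beside 26.1% of all genes) and 1 fell (4.35%, beside 22.7%), with a median difference of 0.88 beside 0.10 over all genes. The genes that rose included Vsig4, a complement receptor of resident macrophages (4.76, SE 1.11, limma adjusted p = 0.00311), the hyaluronan receptor Lyve1 (3.20, SE 0.881, adjusted p = 0.00874) and the mannose receptor Mrc1 (2.28, SE 0.641, adjusted p = 0.00988). Cd14, the endotoxin co-receptor, went the other way and fell by 3.76 (SE 0.292, limma adjusted p = 2.32e-07), with every 2151R tumour below every 2208L tumour. In T11, 16 of the 23 lay above all 2208L tumours, as did 35.8% of all genes, and 13 above all 2151R tumours, as did 39.9% of all genes. The list's mean ran from 0.41 to 0.91 in 2151R, was 0.75 in T11, and ran from -1.18 to 0.12 in 2208L.

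In 2225L against 2208L, 10 of the 23 macrophage genes fell (43.5%, beside 17.3% of all genes) and 1 rose, with a median of -0.82 beside -0.04 over all genes. Cd14 fell by 3.42 (SE 0.378, limma adjusted p = 2.28e-05) and Itgam, the CD11b integrin chain, by 2.24 (SE 0.372, adjusted p = 0.00056). The gene that rose was Sirpa (0.85, SE 0.199, limma adjusted p = 0.00527), the inhibitory receptor for CD47. All 6 pan-leukocyte genes fell too, with a median of -1.83, among them Lcp1 (-2.36) and Ptprc (-2.13). Without the first 2225L tumour, 5 of the 23 macrophage genes and 3 of the 6 pan-leukocyte genes were called. The part of leukocytes at large in the fall of the macrophage genes was not tested.

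In PBS against 3day nt, 2 of the 23 macrophage genes rose and 5 fell, and these 30.4% called are near the 34.0% of all genes. The genes that rose were Mpeg1, which encodes a pore-forming protein of phagocytes (1.27, SE 0.179, limma adjusted p = 0.00523), and Mertk, the receptor for dying cells (1.09, SE 0.208, adjusted p = 0.0107). Timd4, a phosphatidylserine receptor of resident macrophages, fell by 2.08 (SE 0.515, limma adjusted p = 0.0238). Alongside, 5 of 7 dendritic cell genes fell (71.4%, beside 16.5% of all genes), and 4 of 7 neutrophil genes rose (57.1%, beside 17.4%). Of 6 T and NK cell genes 2 fell (33.3%), and of 4 B cell genes 1 fell (25%). Those 2 lists are too short to be set apart from the 16.5% of all genes. The mean of 7 adipocyte genes was also lower in the PBS tumours (-1.33 ± 2.97, SD, n = 4) than in those titled 3day nt (2.68 ± 0.25, SD, n = 3), with overlap. The part of these cells was not tested. The counts for macrophage, dendritic cell and neutrophil genes became 0 with the muscle score as a covariate, a fit that called 0.706% of all genes. They also became 0 when the tumours rich in muscle markers were left out, which leaves 1 tumour of 3day nt and called 0.567% of all genes, so few calls were possible there. Without those tumours the differences changed little for Mpeg1 (1.28), Mertk (1.12) and Timd4 (-2.21). Those of the other called macrophage genes shrank. Trem2 went from -1.03 to -0.76, Aif1 from -0.93 to -0.82, C1qa from -0.71 to -0.52 and Ctss from -0.64 to -0.49. All 7 macrophage genes kept their sign. With sample weights 15 of the 23 macrophage genes were called, but the share of all genes called in that fit is not given here.

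**Figure D3:**
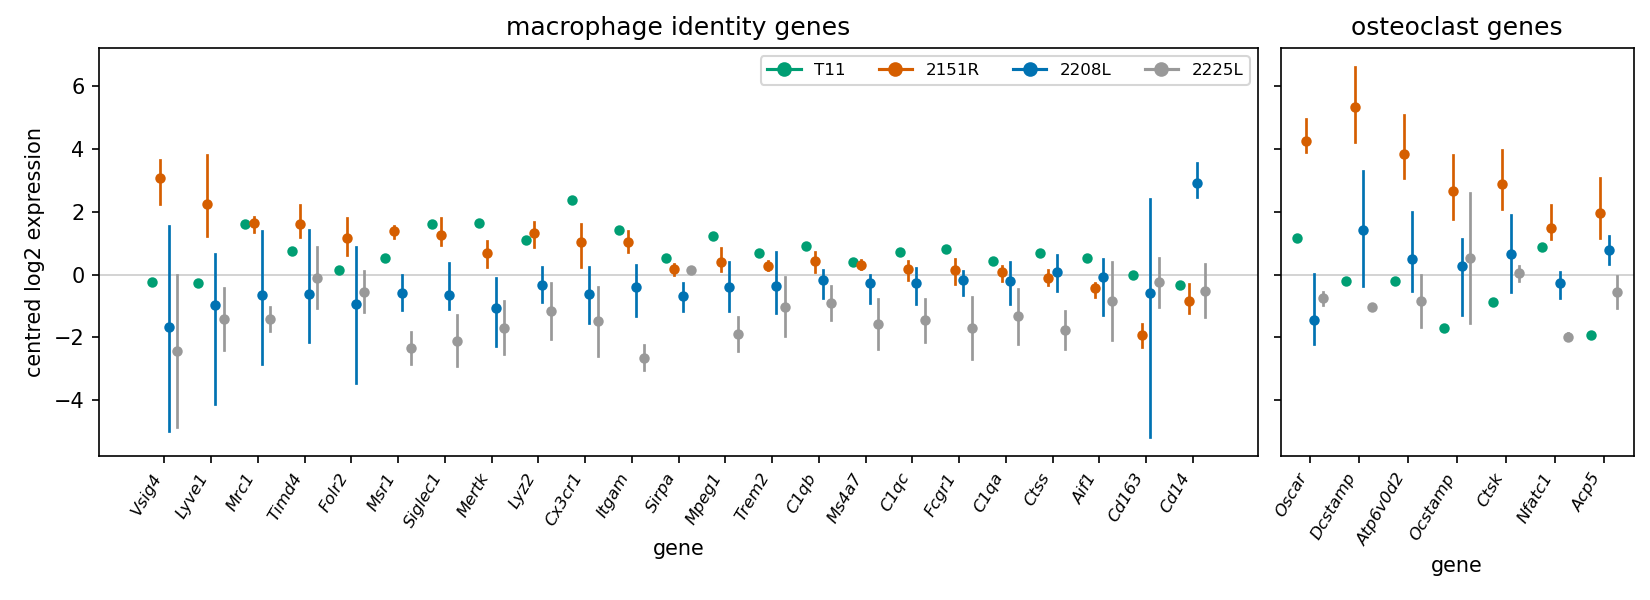
Mean (point) and range (line) of the centred log2 values of 23 macrophage genes and 7 osteoclast genes in each model. Most macrophage genes are highest in T11 or 2151R, Cd14 is highest in 2208L, and the mean of each osteoclast gene is highest in 2151R and lower in T11.

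The osteoclast is another cell that develops from Csf1r-bearing precursors, and its genes were higher in 2151R than in the single T11 tumour. All 7 osteoclast genes measured rose in 2151R against 2208L (100%, beside 26.1% of all genes), with a median of 2.40 beside 0.10 over all genes. They were Oscar, an activating receptor (5.69, SE 0.377, limma adjusted p = 4.63e-08), the fusion proteins Dcstamp (3.92, SE 0.771, adjusted p = 0.000913) and Ocstamp (2.40, SE 0.658, adjusted p = 0.00862), and the proton pump subunit Atp6v0d2 (3.36, SE 0.549, adjusted p = 0.000216). The others were the collagen-degrading protease Ctsk (2.23, SE 0.437, limma adjusted p = 0.000892), the transcription factor Nfatc1 (1.75, SE 0.226, adjusted p = 2.84e-05) and the tartrate-resistant phosphatase Acp5 (1.19, SE 0.349, adjusted p = 0.0125). Oscar and Dcstamp each hold a value shared exactly by several tumours, whose meaning is not stated, and 5 of 5 were called without them. The mean of the list was 2.50 to 4.25 in 2151R, -0.33 to 1.10 in 2208L, -0.78 and -0.53 in 2225L and -0.41 in T11. T11 lay below all 4 of the 2151R tumours for each of the 7 genes, and Acp5 (-1.92), Ctsk (-0.87) and Oscar (1.16) are examples of its values. The share of all genes with T11 below all 2151R tumours was not counted. All 7 adipocyte and all 8 epithelial genes lay below as well, against 5 of the 23 macrophage and 0 of the 6 pan-leukocyte genes. Several of these genes are also expressed by macrophages and tumour cells.

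**Figure D4:**
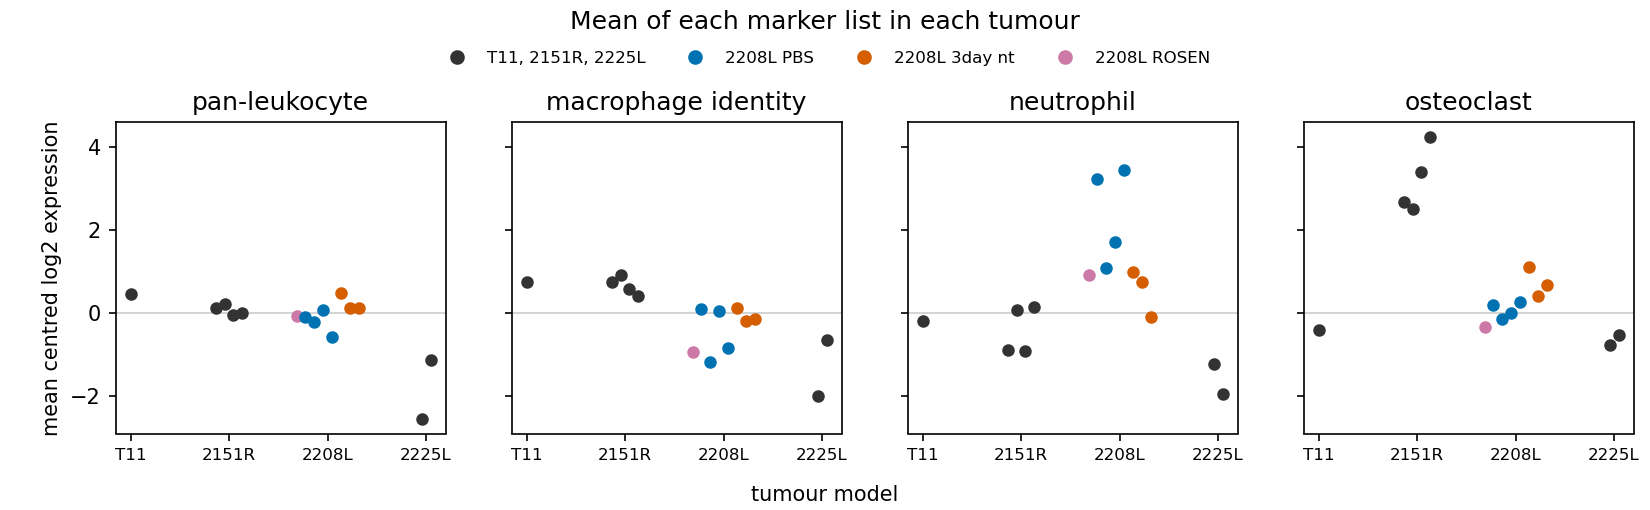
Mean centred log2 value of 4 marker lists in each tumour, by model. The pan-leukocyte means of 2151R and 2208L overlap, the macrophage means of 2151R and T11 exceed those of 2208L, the highest neutrophil means are in 2208L tumours, and osteoclast means are high in the 2151R tumours (2.50 to 4.25).

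Downstream of the receptor, 15 genes of its signalling pathway were read. In 2151R against 2208L, 8 rose (53.3%, beside 26.1% of all genes) and 2 fell, with a median of 0.46. The kinase Syk rose by 1.54 (SE 0.256, limma adjusted p = 0.000241), the inositol phosphatase Inpp5d by 0.92 (SE 0.211, adjusted p = 0.00269) and the adaptor Tyrobp by 0.64 (SE 0.25, adjusted p = 0.0474). Pik3r1, the regulatory subunit of PI 3-kinase, fell by 1.81 (SE 0.235, limma adjusted p = 2.97e-05). In 2225L against 2208L, 7 fell (46.7%, beside 17.3% of all genes) and 2 rose, led by the phospholipase Plcg2 (-1.65, SE 0.255, limma adjusted p = 0.000329) and Pik3r1 (-1.46, SE 0.303, adjusted p = 0.00256). In PBS against 3day nt, 4 rose, among them Pik3r1 (0.80), Plcg2 (0.64) and the ubiquitin ligase Cbl (0.52). These 26.7% stand beside 17.4% of all genes called higher and 34.0% called in either direction. Without the tumours rich in muscle markers 0 were called, and the differences were 0.46, 0.44 and 0.43. Most of these genes are expressed by many cell types.

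Of 12 transcription factors of the macrophage lineage, 4 rose (33.3%, beside 26.1% of all genes) and 1 fell (8.33%, beside 22.7%) in 2151R against 2208L. In either direction 41.7% were called, beside 48.8% of all genes. Maf rose by 2.07 (SE 0.501, limma adjusted p = 0.00396), Irf8 by 0.96 (SE 0.156, adjusted p = 0.000209) and Spi1, which encodes the lineage regulator PU.1, by 0.67 (SE 0.265, adjusted p = 0.0498). Cebpb fell by 3.37 (SE 0.409, limma adjusted p = 1.59e-05). In 2225L against 2208L, 5 fell (41.7%, beside 17.3% of all genes), among them Spi1 (-1.22, SE 0.342, limma adjusted p = 0.0149). In PBS against 3day nt, 5 fell (41.7%, beside 16.5% of all genes) and 1 rose (8.33%, beside 17.4%). Maf (-1.44), Irf5 (-0.97) and the inhibitor Id3 (-0.93) were lower. Without the tumours rich in muscle markers 0 were called, and these differences were -0.94, -0.72 and -0.54.

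The other colony stimulating factors and their receptors moved in both directions. Of 8 measured, 2 rose and 2 fell in 2151R against 2208L, with a median of -0.27, and the 50% called is near the 48.8% of all genes. Csf3, the neutrophil growth factor, fell by 5.09 (SE 0.442, limma adjusted p = 6.89e-07) and Kit, the stem cell factor receptor, by 3.44 (SE 0.34, adjusted p = 2.37e-06). Flt3, a receptor of dendritic cell precursors, rose by 3.16 (SE 0.886, limma adjusted p = 0.00968), and so did its ligand Flt3l (1.17, SE 0.266, adjusted p = 0.00268). Flt3l had the same order of models as Csf1 and Il34, at 0.86 in T11 and means of 0.76 in 2151R, -0.41 in 2208L and -1.05 in 2225L. In 2225L, Csf3 (-3.65, SE 0.571, limma adjusted p = 0.000363) and its receptor Csf3r (-2.35, SE 0.439, adjusted p = 0.00126) were among 3 that fell against 2208L (37.5%, beside 17.3% of all genes). In PBS against 3day nt, Kitl (0.99) and Csf3r (0.95) rose (25%, beside 17.4% of all genes), while Flt3 (-2.75) and Flt3l (-0.78) fell (25%, beside 16.5%). Leaving out any 1 of these 7 tumours left 0 to 2 of the 8 measured genes called. Without the tumours rich in muscle markers 0 were called, and the differences were 0.87 for Kitl, 1.22 for Csf3r, -3.08 for Flt3 and -0.30 for Flt3l.

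Il34 can also bind the phosphatase Ptprz1 and the proteoglycan Sdc1. Both were highest in 2208L. Il34 was low there (mean -0.38) but lower still in 2225L (mean -1.37), where the means of Ptprz1 (0.64) and Sdc1 (-0.295) were below those of 2208L. Relative to 2208L, Ptprz1 differed by -8.22 in 2151R (SE 0.527, limma adjusted p = 3.33e-08) and by -7.25 in 2225L (SE 0.68, adjusted p = 6.13e-06). Sdc1 differed by -1.51 in 2151R (SE 0.174, limma adjusted p = 9.92e-06) and by -1.19 in 2225L (SE 0.225, adjusted p = 0.00136). In both genes every tumour of 2151R and 2225L lay below every tumour of 2208L. For 2225L, 16.0% of all genes did so, and the share for 2151R is not given here.

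Markers of other cells moved between 2151R and 2208L as well. Of 8 epithelial genes, 7 fell, led by the claudins Cldn7 (-8.34) and Cldn4 (-7.21) and the adhesion protein Epcam (-6.58), and 1 (Krt5) rose. The epithelial mean was -4.17 to -3.07 in 2151R, -8.18 in T11 and 0.12 to 1.37 in 2208L, so the models high in Csf1 and Il34 were those low in epithelial RNA. Of 7 endothelial genes 6 rose (85.7%, beside 26.1% of all genes), of 8 fibroblast genes 3 rose (37.5%), and 4 of 7 neutrophil genes fell (57.1%, beside 22.7%) with a median of -2.37. Of 7 adipocyte genes 3 rose (42.9%) with a median of 4.16, and their mean was 2.47 to 5.49 in 2151R, -0.40 in T11 and -3.28 to 3.07 in 2208L. Of 6 T and NK cell genes 2 rose (33.3%), Ncr1 (2.22) and Cd4. Among 7 monocyte genes, Vcan rose (4.14) and F10 fell (-2.30). Of 7 dendritic cell genes 2 fell (28.6%, beside 22.7% of all genes), Batf3 (-2.28) and Zbtb46 (-0.84). The other 5 dendritic cell genes were not called, and the median of the 7 was 0.59, beside 0.10 over all genes. The part of these cells in the differences of Csf1, Il34, Csf1r, Adgre1 and Cd68 was not tested.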

How the data were processed

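RNA of 15 tumours had been extracted with a column kit and made into poly(A) libraries, per the labels' protocols. The submitters' processing notes name STAR, Salmon and mm10, with no versions. The authors deposited 1 table of centred log2 values for 17271 genes, and the offset and the samples behind the centring are not given in the sources used here. A gene's value at 0 is its reference, and 43.4% of genes have exactly 1 sample at 0, so the reference is often one of these tumours. Levels of different genes, and absolute depth, cannot be read from such values. The table has 0 missing values, and 727 genes hold a value shared exactly by several samples, none of them one of the 5 described here.

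Differences were tested with limma 3.58.1 in R 4.3.3 on the deposited values, with no mean-variance trend. The models were compared in 1 fit over 15 samples with a mean per model, and PBS with 3day nt in a fit of those 7 samples. P-values were adjusted by Benjamini-Hochberg over all 17271 genes. Single genes were also compared with exact permutation tests. The code was tested on simulated data. The 5 genes and the marker lists were chosen with earlier results of these data known, so no list is independent evidence. Besides the 5 genes, the text names the called genes with the largest differences in each list and the 5 genes most like each member, and a few others (Mrc1, Sirpa, Tyrobp, Flt3l, Spi1, Krt5 and the remaining osteoclast genes) that were chosen after their values were seen. A few genes that this rule would name are not reported here. Alternatives were other scalings, filters, covariates, weights and subsets, and leaving out each replicate.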

Additional observations from a re-analysis of the deposited data

Results flagged for a closer look

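Among the values of the 5 genes in groups of 4 to 10 tumours, 15 sets were examined for a tumour far from the others, and 1 stood out. Adgre1 was -1.15 in replicate 5 of 2208L, a PBS tumour, while the other 7 tumours of that model lay between -0.32 and 0.17. Chance marks about 1 in 20 sets in this way. The same tumour had the lowest Csf1r (-0.89) and Csf1 (-0.94) of its model and the lowest pan-leukocyte mean (-0.59), while its Cd68 was 0.00.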

How the results depend on the processing

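In 2151R minus 2208L, Csf1, Il34, Csf1r and Cd68 kept their direction and their call under every alternative run. Adgre1 lost its call with PBS tumours alone as 2208L (1.0), with 3day nt tumours alone (0.91), with tumours titled NT, nt or PBS alone (0.74) and without the tumours rich in muscle markers (1.02, chosen after seeing the data), and ranged from 0.80 to 1.01 when each replicate was left out. In 2225L minus 2208L, quantile normalization ended the calls of Il34 (-0.61) and Csf1r (-0.66), leaving 1 member called, and sample weights those of Il34 (-0.91), Csf1r (-1.10) and Adgre1 (-1.61), leaving 0. A fit of the compared models alone ended those of Il34 (-0.99) and Csf1r (-0.98), leaving 1. PBS tumours alone ended those of Il34 (-0.90), Csf1r (-0.99) and Adgre1 (-1.42) and gave that of Cd68 (-0.65), leaving 1. With 3day nt tumours alone, Il34 (-1.12), Csf1r (-1.02) and Adgre1 (-1.51) lost theirs and Csf1 gained one (-0.99), leaving 1. Centring each sample on its median also called Csf1 (-0.63). Leaving out each replicate gave -1.01 to -0.28 for Csf1, -1.71 to -0.28 for Il34, -1.61 to -0.35 for Csf1r and -2.51 to -0.48 for Adgre1, with 0 to 4 members called. In 2225L minus 2151R the exact test, which cannot go below 0.0667, called 0 of the members (Csf1 -2.28, Il34 -3.05, Csf1r -2.24, Adgre1 -2.42, Cd68 -2.39). In PBS minus 3day nt, Csf1 was called, as 1 member, when centred (-0.44), after quantile normalization (-0.57) and with weights (-0.46). The other 5 of 8 settings did not call it, and over the 8 its difference ran from -0.57 to -0.42. Uncalled values changed sign for Csf1r when centred (0.04), after quantile normalization (0.026), with a muscle covariate (0.17), with weights (0.21) and without the tumours rich in muscle markers (0.12), and for Adgre1 with a muscle covariate (0.062) and with weights (0.16). Leaving out each replicate there gave -0.17 to 0.17 for Csf1r, -0.27 to 0.17 for Adgre1 and -0.068 to 0.36 for Cd68. The cause was not tested. Counts of called macrophage genes moved from 14 to 9 with tumours titled NT, nt or PBS in 2151R minus 2208L, and from 11 to 7 with quantile normalization and to 4 with weights in 2225L minus 2208L, and in the latter signalling genes moved from 9 to 3 with weights. In 2151R minus 2208L, signalling genes moved from 10 to 4 with tumours titled NT, nt or PBS, and transcription factors from 5 to 10 with weights and to 3 with 3day nt tumours alone. In PBS minus 3day nt, leaving out each replicate gave 2 to 9 macrophage genes, 0 to 8 signalling genes and 0 to 6 transcription factors. The 7 osteoclast genes of 2151R minus 2208L stayed at 5 to 7 called. The shares of all genes called with weights, with quantile normalization, with tumours chosen by title or with a replicate left out are not given here. No paired analysis was possible because replicates were numbered in accession order, which pairs nothing. The depth is unknown, so no floor can be given for a low value.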

Other observations

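The genes that govern osteoclast formation were looked at after the osteoclast list had been seen. Tnfsf11, which encodes the osteoclast factor RANKL, was higher in 2151R than in 2208L by 2.24 on the log2 scale (SE 0.827, limma adjusted p = 0.0382), although the models overlapped. Tnfrsf11b, which encodes osteoprotegerin, the decoy receptor of RANKL, fell by 3.75 (SE 0.199, limma adjusted p = 4.91e-09), with every 2151R tumour below every 2208L tumour. The receptor gene Tnfrsf11a differed by 0.06 (SE 0.333, limma adjusted p = 0.887). In 2225L, Tnfrsf11a differed from 2208L by -2.32 (SE 0.43, limma adjusted p = 0.00119). In T11, whose osteoclast genes were below those of 2151R, Tnfsf11 was 1.65, inside the ranges of both 2151R and 2208L. Tnfrsf11b was -0.23 in T11, below all 2208L tumours and above all 2151R tumours, and Tnfrsf11a was 0.74, inside both ranges. The part of these genes in the osteoclast differences was not tested.

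Mmp9, a gelatinase of osteoclasts, neutrophils and macrophages, is among the genes most like Cd68. It was 4.93 higher in 2151R than in 2208L (SE 0.449, limma adjusted p = 1.08e-06). In T11 it was 3.25, above all 2208L tumours and below all 2151R tumours. Which cells the Mmp9 RNA came from was not tested. The lysosomal membrane protein gene Gpr137b rose by 3.01 in 2151R against 2208L (SE 0.261, limma adjusted p = 6.77e-07), and at 1.33 T11 again lay between those models.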
